A study of Homo sapiens with 16 samples.

Results

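The genes described here are the sorting nexin (SNX), VPS and ESCRT genes, many of which sort membrane proteins in endosomes. They were taken by symbol, not by function: SNX, VPS or CHMP followed by a number, plus HGS, STAM, STAM2, TSG101, PDCD6IP and SNF8. The rule found 70 of the 8704 genes in the deposited tables, and used no measured value. The cells were HCT-116, a human colorectal carcinoma line, carrying pCMV-OsTIR1 and an mAID degron on endogenous DDX3X, so that auxin (IAA) leads to loss of the DDX3X protein. This engineered clonal line was infected with a control lentivirus (lentiCTRL) or with lentivirus encoding FLAG-tagged, partially codon-optimized DDX3X or DDX3Y. Both the DDX3X and the DDX3Y cells were sorted on mCherry2. The lentiCTRL cells received DMSO or 500 µM IAA, and the DDX3X and DDX3Y cells received IAA, for 48 h, before 100 µg/ml cycloheximide and lysis. Each of the 4 conditions had 2 replicates, each measured by ribosome profiling and by RNA-seq, 16 libraries in all.

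The values used are the authors' means of normalized counts over coding sequences, or base means. The first table pools the 4 lentiCTRL libraries of each assay, with and without IAA, and the other pools the 4 DDX3X and DDX3Y libraries, with no value per library. No comparison between conditions, no spread between replicates and no test is therefore given for any gene. The tables share no library, so the second shows how far each value repeats, but they were normalized separately and are only set side by side. Intervals in brackets are 95% intervals from counting error alone, and are approximate. The lentiCTRL table holds 69 of these genes among 8657, the DDX3X and DDX3Y table holds 63 among 7433, and 62 are in both. No gene has a footprint base mean under 10 in the former or under 20 in the latter, so genes with fewer footprints are not described. Symbols of another 12 protein-coding genes match the rule but are in neither table, among them SNX13, SNX16, SNX29 and VPS54. Of 8 markers of colorectal epithelium, 6 were present in both tables, including EPCAM, KRT8 and CDX2, whereas VIL1 and LGALS4 were not. Of 8 markers of other cell types, only COL1A1 was present, in the lentiCTRL table, with an RNA base mean of 506 and a footprint base mean of 10.6.

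ESCRT complexes act in sequence on ubiquitinated cargo. ESCRT-0 binds it, ESCRT-I and ESCRT-II pass it on, and ESCRT-III filaments, remodelled by the ATPase VPS4, bud and cut the membrane into the lumen of multivesicular bodies. The same filaments cut the membrane bridge at the end of cell division and seal the nuclear envelope. Retromer and many sorting nexins carry cargo the other way, from endosomes to the Golgi or the cell surface, while HOPS, CORVET and GARP tether vesicles to their target membranes and VPS13 proteins carry lipids between organelles.

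Ribosome footprints relative to RNA were centred on the transcriptome in these genes, and spread less than over all genes. Relative translation efficiency (TE) is the log2 ratio of footprint to RNA base mean minus its median over all genes of the table, so that 0 is the median gene. The median over the 69 genes was 0.01 in the lentiCTRL libraries, with 35 above the median gene, a share of 50.7%, beside the even split that all genes have by definition. Of these 69 genes, 17 lay above the upper quartile of all genes and 10 under the lower quartile. In the DDX3X and DDX3Y libraries it was 0.04, with 34 of 63 above, 12 above the upper quartile and 9 under the lower. Relative TE ran from -2.19 for SNX19 to 1.96 for SNX12 in the lentiCTRL libraries, a 17.7-fold range, and its SD was 0.74, beside 1.05 over all genes of the table. The SDs were 0.64 and 0.88 in the other libraries. In the ordered list of 69 genes, 2 of 68 neighbouring pairs differed beyond counting error, at the top (SNX12 and VPS28) and at the bottom (VPS13D and SNX19). Small gaps between neighbours follow from ordering on these same values, so the count does not show how far genes differ. Every position above or below 0 depends on the choice of centre. Centring on genes with a footprint base mean above 100 lowered all values by 0.54 in the lentiCTRL table, which left 19 of the 69 above 0, and by 0.32 in the other.

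**Figure D1:**
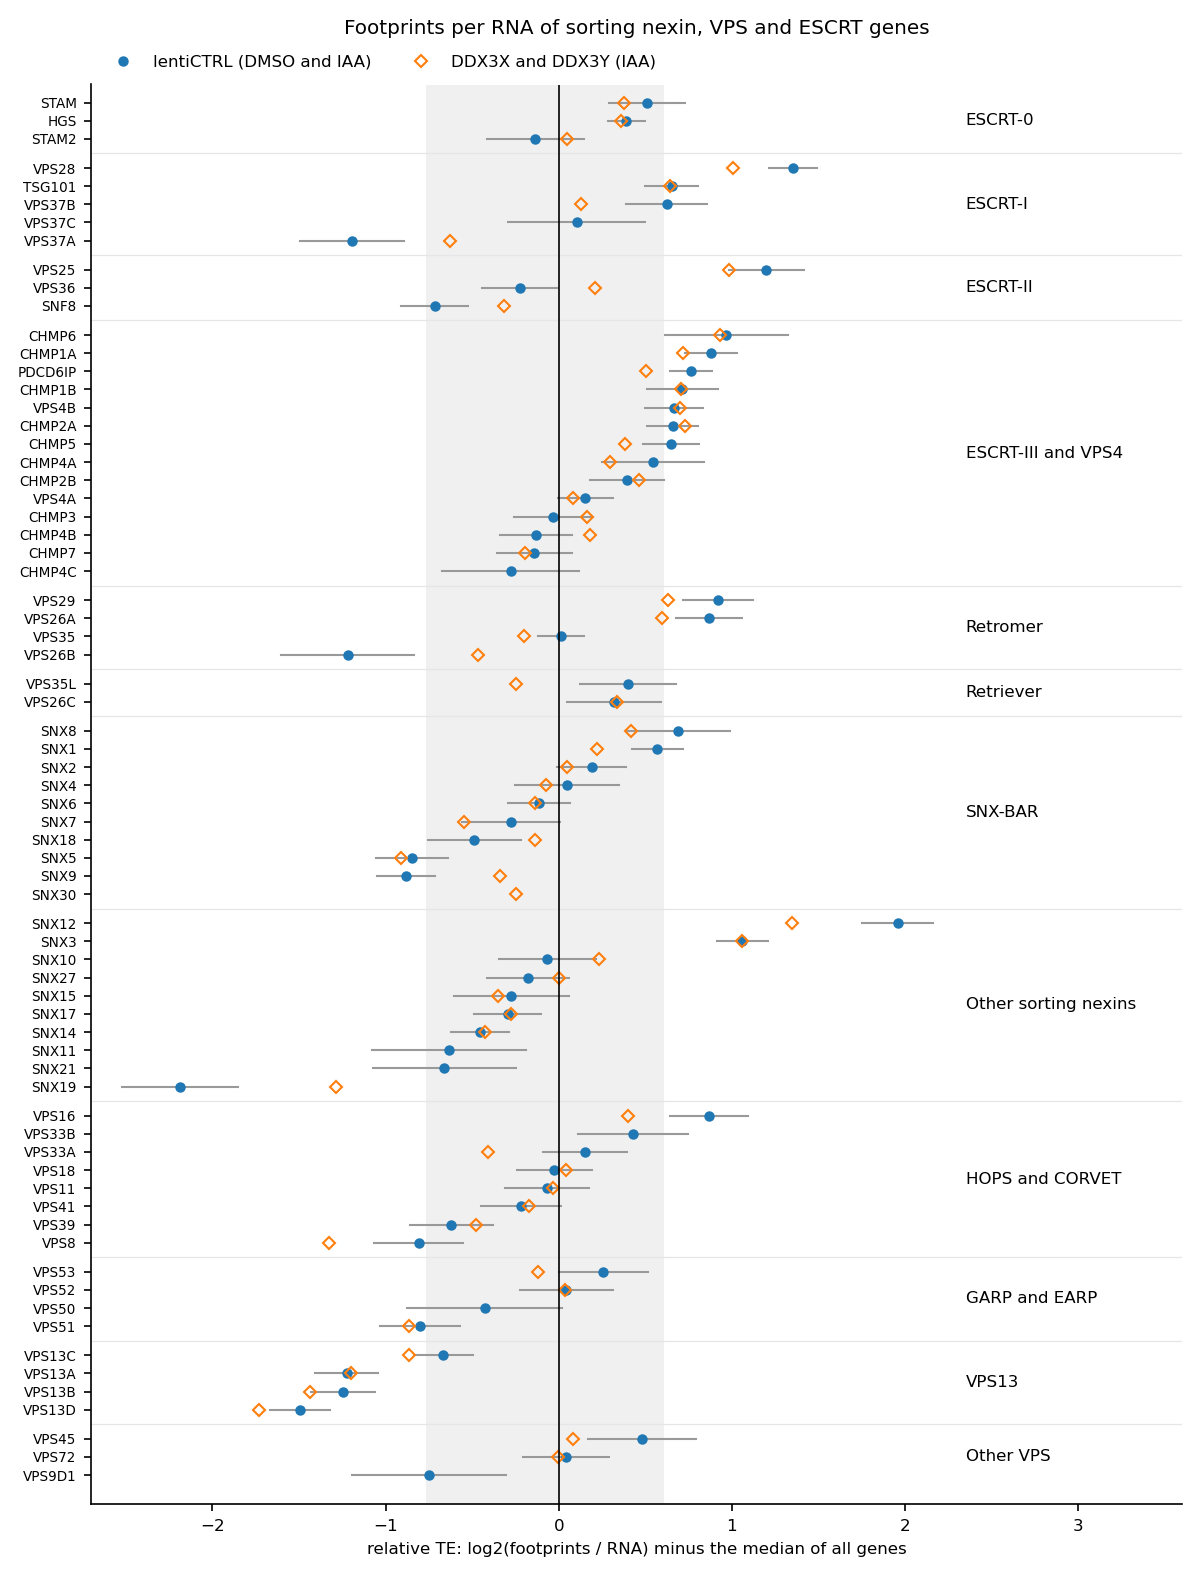
Relative TE (log2) of each gene by group, with lentiCTRL libraries as filled circles, their 95% counting intervals as grey lines, and DDX3X and DDX3Y libraries as open diamonds; the shaded band holds the middle of all lentiCTRL genes, from the lower to the upper quartile. ESCRT genes lie mostly right of 0, all 4 VPS13 genes lie left of it, and SNX12 and SNX19 mark the ends at 1.96 and -2.19.

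The ESCRT genes as a class lay above the median gene, 17 of 25 in the lentiCTRL libraries, with a median relative TE of 0.51, and 20 of 23 in the other libraries, with a median of 0.38. By contrast, 6 of 19 sorting nexins lay above it, with a median of -0.27, and 7 of 18 in the other libraries, with a median of -0.13. Beside them, 42 RAB small GTPase genes had a median of 0.31, and 39 clathrin, adaptor and COP coat genes had a median of 0.28, in the lentiCTRL libraries. These medians were 0.45 over 34 RAB genes, above that of the ESCRT genes, and 0.19 over 34 coat genes in the other libraries. These are positions relative to the median gene and, as no gene could be tested, counts of signs only. ESCRT coding sequences were short in the lentiCTRL table, with a median of 774 nt, beside 1353 nt for sorting nexins and 1419 nt over all genes. Within classes of coding length, described below, 11 of the 25 ESCRT genes lay above the class median, and 13 of 23 in the other libraries.

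In ESCRT-0, HGS, the ubiquitin-binding subunit also known as HRS, had far more RNA and footprints per kb of coding sequence than either of its STAM partners. HGS had an RNA base mean of 2938 and a footprint base mean of 176 in the lentiCTRL libraries, and 3153 and 225 in the DDX3X and DDX3Y libraries. Per kb its RNA level was 1260 in the lentiCTRL libraries. Its footprint level was 75.6 per kb, against 27.7 for STAM and 17.1 for STAM2. RNA levels per kb of STAM (426) and STAM2 (411) were close, 1.04-fold apart, while the footprint levels were 1.62-fold apart. Relative TE was 0.39 (0.28 to 0.50) for HGS, 0.51 (0.29 to 0.73) for STAM and -0.13 (-0.41 to 0.14) for STAM2. It was 0.36, 0.38 and 0.05 in the other libraries, so the order was the same in both tables. The STAM proteins share 58.6% of aligned residues, computed from the annotated coding sequences.

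ESCRT-I held both the highest and the lowest relative TE of the 25 ESCRT genes. VPS28, a core subunit, had a base mean of 977 for RNA and 114 for footprints, a relative TE of 1.35 (1.21 to 1.49), the second highest of all 69 genes, and 1.01 in the other libraries. TSG101, which binds ubiquitin and is recruited by several viruses, gave 0.65 (0.50 to 0.81) and 0.64. The VPS37 subunit has alternative versions, and these differed. VPS37A had the more abundant RNA, 947 per kb against 662 for VPS37B and 256 for VPS37C, but VPS37B had more footprints, 46.6 per kb against 19.0 and 12.6. VPS37A thus had 1.43 times the RNA and 0.41 times the footprints of VPS37B. Its relative TE was -1.19 (-1.49 to -0.89), against 0.62 (0.39 to 0.85) for VPS37B, and in the DDX3X and DDX3Y libraries the values were -0.63 and 0.13. Of the VPS37A coding windows of 28 nt, about the length of a footprint, 22.1% also occur elsewhere in the genome, and how such reads were counted is not given in the sources used here. VPS37C was in the lentiCTRL table alone, with a relative TE of 0.10 (-0.29 to 0.50) on a footprint base mean of 13.4.

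In ESCRT-II the 3 subunits lay further apart in RNA than in ribosome footprints. SNF8 had the highest RNA level per kb of all 69 genes, 2561, followed by 968 for VPS36 and 842 for VPS25. Footprints per kb were closer together, at 71.3 for SNF8, 37.9 for VPS36 and 88.4 for VPS25. In the other libraries RNA per kb was 2235 for SNF8, 831 for VPS36 and 877 for VPS25, and footprints per kb were 99.9, 53.5 and 96.4, so VPS25 was above SNF8 in footprints in the lentiCTRL libraries and below it in the others. Relative TE was accordingly -0.72 (-0.91 to -0.52) for SNF8, -0.23 (-0.44 to -0.01) for VPS36 and 1.20 (0.98 to 1.42) for VPS25. It was -0.32, 0.21 and 0.98 in the other libraries, in the same order. The SNF8 values rest on a coding sequence with 11.2% of its windows elsewhere in the genome.

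ESCRT-III, VPS4 and ALIX (PDCD6IP) formed the largest group, with a median relative TE of 0.60 in the lentiCTRL libraries. Of the 14 genes, 10 were above the median gene, 7 were above the upper quartile and 0 were under the lower. In the other libraries 12 of 13 were above it, with a median of 0.46. CHMP6, which links ESCRT-II to the filament, had the highest value, 0.97 (0.61 to 1.32), although its RNA was the scarcest of the set at 319 per kb. CHMP1A followed at 0.88 (0.73 to 1.03), then PDCD6IP, the adaptor that joins ESCRT-III to cargo and viral proteins, at 0.76 (0.64 to 0.88), and CHMP1B at 0.71 (0.51 to 0.92). VPS4B, CHMP2A, CHMP5, CHMP4A and CHMP2B lay between 0.40 and 0.67. VPS4A at 0.15, CHMP3 at -0.03, CHMP4B at -0.13, CHMP7 at -0.14 and CHMP4C at -0.28 had counting intervals that included 0. CHMP3 and CHMP4B lay on the other side of the median gene in the DDX3X and DDX3Y libraries, at 0.16 and 0.18.

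Footprint levels per kb within ESCRT-III covered a wide range. CHMP1A had 169 and CHMP2A 148, and CHMP5, which binds the VPS4 cofactor VTA1, had 125. The CHMP4 proteins form the bulk of the membrane-cutting filament. Among them CHMP4B had 72.1 footprints per kb, CHMP4A 37.4 and CHMP4C, which acts in the abscission checkpoint, 18.8. CHMP4B thus held 56.2% of the footprint density of the 3 genes, CHMP4A 29.1% and CHMP4C 14.7%. CHMP4B and CHMP4A had RNA levels 3.08-fold apart and footprint levels 1.93-fold apart. These levels were 2.69-fold and 2.48-fold apart in the other libraries, and relative TE was higher for CHMP4A by 0.67 in the lentiCTRL libraries and by 0.12 in the others. Of the CHMP4B windows, 29.0% occur elsewhere in the genome, as do 31.6% of those of CHMP5 and 21.1% of those of PDCD6IP. CHMP7, the nuclear envelope adaptor, had 32.4 and CHMP6 28.5. CHMP3 and CHMP4A share 93.2% and 91.6% of their coding bases, and VPS4A 90.8%, with an annotated coding gene on the same strand that overlaps them, so their counts may be split or shared.

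The VPS4 ATPases showed RNA and footprints that differed unequally. VPS4A had 1219 RNA per kb and VPS4B 777, a 1.57-fold difference, while their footprint levels were 62.0 and 56.4 per kb, a 1.10-fold difference. In the other libraries RNA was again 1.56-fold higher for VPS4A and footprints were 1.02-fold higher. The proteins are 81.7% identical, the closest of the pairs aligned, and no 28-nt window is shared between them or between any other members.

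**Figure D2:**
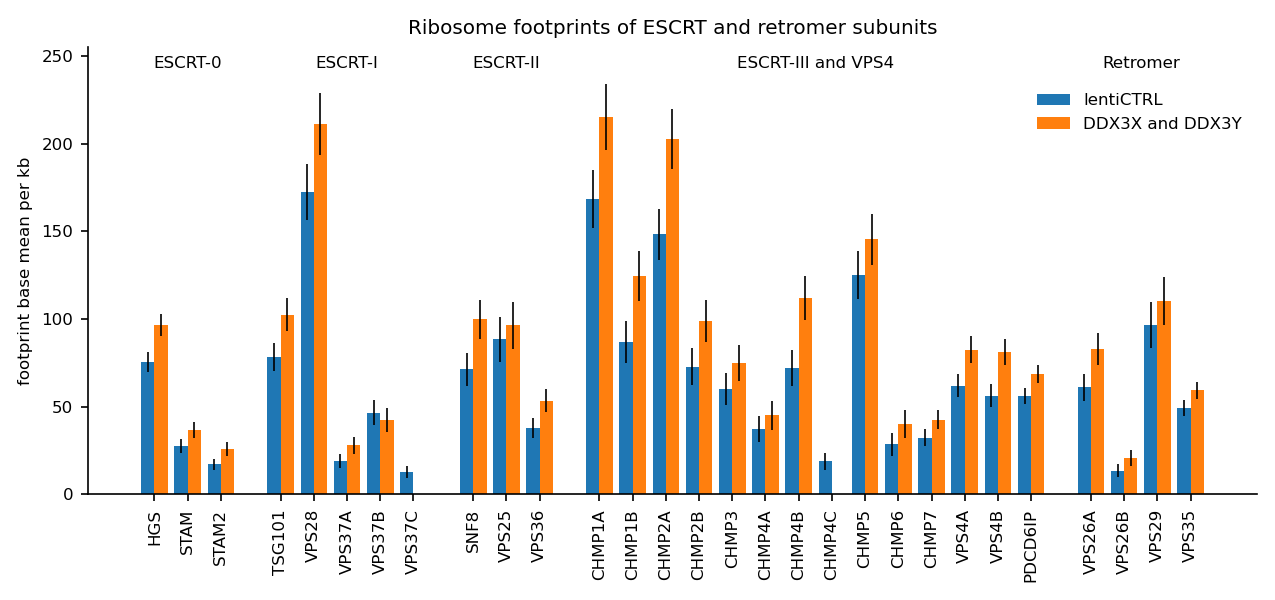
Footprint base mean per kb of coding sequence for ESCRT and retromer subunits, in lentiCTRL libraries and in DDX3X and DDX3Y libraries, with 95% counting intervals as error bars and the axis starting at 0; the scales of the tables were set separately. CHMP1A and VPS28 stand highest at 169 and 172, and VPS26B lies well under VPS26A, at 13.7 against 61.1.

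Retromer is a trimer of VPS35, VPS29 and a VPS26 subunit, of which there are 2 versions, and these showed the widest gap of any paralog pair examined. VPS26A and VPS26B had nearly the same RNA level in the lentiCTRL libraries, 732 and 695 per kb, 1.05-fold apart. Their footprint levels were 61.1 and 13.7 per kb, 4.47-fold apart, from footprint base means of 59.9 and 13.8. Relative TE was 0.87 (0.68 to 1.06) for VPS26A and -1.22 (-1.60 to -0.84) for VPS26B, a difference of 2.09 ± 0.43 (95% counting error). In the DDX3X and DDX3Y libraries RNA differed 1.91-fold, footprints differed 3.99-fold and relative TE was 0.60 and -0.47. The direction was thus the same in both tables, and the gap in relative TE was smaller in the second, at 1.06. VPS26A held 51.3% of the RNA density of the pair but 81.7% of its footprint density, and 80.0% in the other libraries. The proteins are 70.5% identical, and 14.8% of VPS26A windows but 0 of VPS26B windows occur elsewhere in the genome. For VPS35 the share is 19.1%. The VPS26B 5′ UTR is 452 nt long, that of VPS26A 100 nt, and neither has an upstream ATG. VPS29 had 96.5 footprints per kb with a relative TE of 0.92 (0.72 to 1.12), and VPS35, the scaffold, had 49.1 with 0.01 (-0.12 to 0.15). Their relative TE was 0.63 and -0.20 in the other libraries. Footprint densities of VPS26A and VPS26B add up to 74.7 per kb, which lies between those of VPS35 and VPS29. In retriever, a related complex that shares VPS29, VPS35L and VPS26C had 9.55 and 31.8 footprints per kb.

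The SNX-BAR proteins bend membrane through their BAR domain, and SNX1 or SNX2 pairs with SNX5 or SNX6 in endosome-to-Golgi carriers. The SNX1 and SNX2 side had relative TE of 0.57 (0.42 to 0.72) and 0.19 (-0.01 to 0.39), and the SNX5 and SNX6 side had -0.85 (-1.05 to -0.64) and -0.11 (-0.29 to 0.07). RNA was higher for SNX5 (1553 per kb) than for SNX1 (907), yet footprints were higher for SNX1 (61.6 per kb) than for SNX5 (39.5). SNX5 has 43.1% of its windows elsewhere in the genome, the largest share in the set, and 2 upstream ATGs. For SNX6 the share is 10.6%. Within the group SNX8 was highest at 0.69 and SNX9, which acts in clathrin endocytosis, lowest at -0.88, on an RNA base mean of 2933. SNX9 was at -0.34 in the other libraries. SNX30 was in the DDX3X and DDX3Y table alone, at -0.25 (-0.56 to 0.07).

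Among the remaining sorting nexins, both ends of the whole set were found. SNX12 and SNX3 are short proteins with little beyond a phosphoinositide-binding PX domain, and SNX3 recruits retromer to carry Wntless. SNX12 had a base mean of 315 for RNA and 55.9 for footprints, and its relative TE of 1.96 (1.75 to 2.16) was above that of 99.1% of all genes. It was 1.35 in the other libraries. SNX3 had the highest footprint level per kb of the set, 206, with a relative TE of 1.06 in both tables. SNX19 had an RNA base mean of 1795 but a footprint base mean of only 18.1, and a relative TE of -2.19 (-2.52 to -1.85). In the other libraries these were 1466, 33.5 and -1.28, the largest difference between tables, and SNX19 was still the lowest sorting nexin. Of its windows, 17.2% occur elsewhere in the genome, and its 5′ UTR of 540 nt holds 3 upstream ATGs. SNX11 and SNX21, in the lentiCTRL table alone, had footprint base means of 10.4 and 12.2 and relative TE of -0.63 and -0.66.

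Most genes of the tethering complexes were scarcer than the median gene per kb of coding sequence. None of the 8 HOPS and CORVET genes reached the median gene in RNA or footprints per kb. VPS16, a core subunit, was highest in relative TE at 0.87 (0.64 to 1.09), and VPS8, a CORVET subunit, was lowest at -0.81 (-1.07 to -0.55), with 0.40 and -1.33 in the other libraries. The SM proteins VPS33A and VPS33B had 386 and 187 RNA per kb and 19.6 and 11.5 footprints per kb. VPS33B was in the lentiCTRL table alone. In GARP and EARP, 0 of 4 genes reached the median gene in footprints per kb in the lentiCTRL libraries. Only VPS51 did so in RNA, at 629 per kb against 600. Relative TE was 0.26 for VPS53 and -0.80 for VPS51. In the other libraries VPS53 was on the other side of the median gene, at -0.12, and VPS51 was at -0.87. Of the VPS51 windows, 6.4% occur elsewhere in the genome. VPS50, which defines EARP, had the lowest RNA (104) and footprints (3.55) per kb of all 69 genes and was in the lentiCTRL table alone. Of the other VPS genes, VPS45 was highest at 0.48 and VPS9D1, in the lentiCTRL table alone, lowest at -0.75.

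The VPS13 genes encode very long lipid transfer proteins with coding sequences of 9522 to 13164 nt, and all 4 lay under the median gene in both tables. Relative TE was -0.67 for VPS13C, -1.22 for VPS13A, -1.25 for VPS13B and -1.50 for VPS13D in the lentiCTRL libraries. In the other libraries it was -0.86, -1.20, -1.44 and -1.73, in the same order. Their RNA base means were among the highest of the set, 2518 to 4158, but this is before division by length. Per kb, RNA was 224 to 330 and footprints 5.09 to 6.46, against 600 and 24.4 for the median gene.

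**Figure D3:**
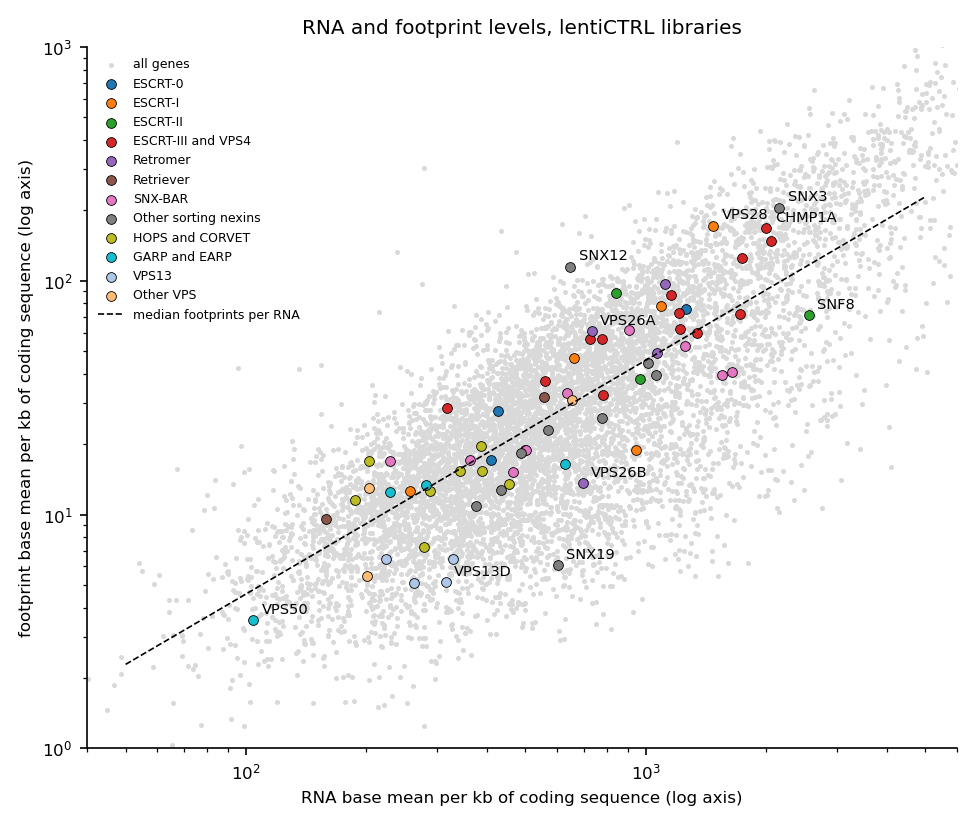
RNA against footprint base mean per kb of coding sequence in the lentiCTRL libraries, both on log axes, with all genes in grey, groups in colour and the dashed line at the median ratio of footprints to RNA. SNX12 lies far above the line and SNX19 far below it at similar RNA, 647 and 603 per kb, with 115 and 6.06 footprints per kb.

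Relative TE was similar between the tables. Over the 62 genes in both, Pearson's r was 0.918 and Spearman's rho 0.919, and 49 of 62 lay on the same side of the median gene, beside 6652 of all 7386 shared genes. The SD of the difference was 0.31, against 0.33 over all 7386 shared genes, for which r was 0.955 and rho 0.952. After SNX19, with 0.90, the largest differences were for VPS26B, 0.75 higher in the DDX3X and DDX3Y libraries, and for VPS35L, which was -0.25 there and 0.40 in the lentiCTRL libraries. Treatment, lentivirus and normalization differ between the tables and cannot be told apart here.

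Coding length moved with relative TE in these genes as it did over the transcriptome. Spearman's rho was -0.50 over the 69 genes and -0.66 over 63 in the other libraries, beside -0.54 and -0.59 over all genes. These points share libraries and normalization, and no p is given. Of the 16 genes with coding sequences under 750 nt, which include 10 CHMP genes, 12 were above the median gene. Of all 1738 genes of that length, 80.4% were above it. The medians were 0.69 and 0.79. In the other libraries 15 of 15 such genes were above it, beside 82.4% of all genes of that length. Of the 5 genes of at least 3000 nt, 0 were above the median gene in the lentiCTRL libraries, beside 12.3% of all 1335 such genes. Their median was -1.22, beside -0.90 for all such genes. In the other libraries it was again 0 of 5, beside 7.5% of all such genes. Among all genes of at least 9000 nt, the size of the VPS13 genes, the median was -1.41 over 70 genes, beside -1.23 for VPS13.

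Set against the median of genes in the same of 4 length classes, the ESCRT genes lay close to the centre and the sorting nexins below it. Of the 25 ESCRT genes, 11 were above the median of their class, with a median difference of -0.08, and 13 of 23 in the other libraries, with 0.02. In ESCRT-III with VPS4 and ALIX, 4 of 14 were above it, with a median difference of -0.14, and 6 of 13 in the other libraries, with -0.13. Of the 19 sorting nexins, 6 were above it, with a median difference of -0.33, and 7 of 18 in the other libraries, with -0.26. In HOPS and CORVET, 7 of 8 were above it, and 4 of 7 in the other libraries. In the lentiCTRL libraries SNX12, at 1.16 above its class, and SNX19, at a difference of -1.96, were still the highest and the lowest, and next to them were VPS16 at 1.09, PDCD6IP at 0.99, VPS26B at -1.44 and VPS37A at -1.41. Others moved toward the centre, with VPS28 at 0.56, VPS25 at 0.41 and VPS13D at -0.59. The ends in the other libraries were PDCD6IP at 0.69 and SNX5 at -1.12, with SNX12 at 0.67 and SNX19 at -1.09.

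**Figure D4:**
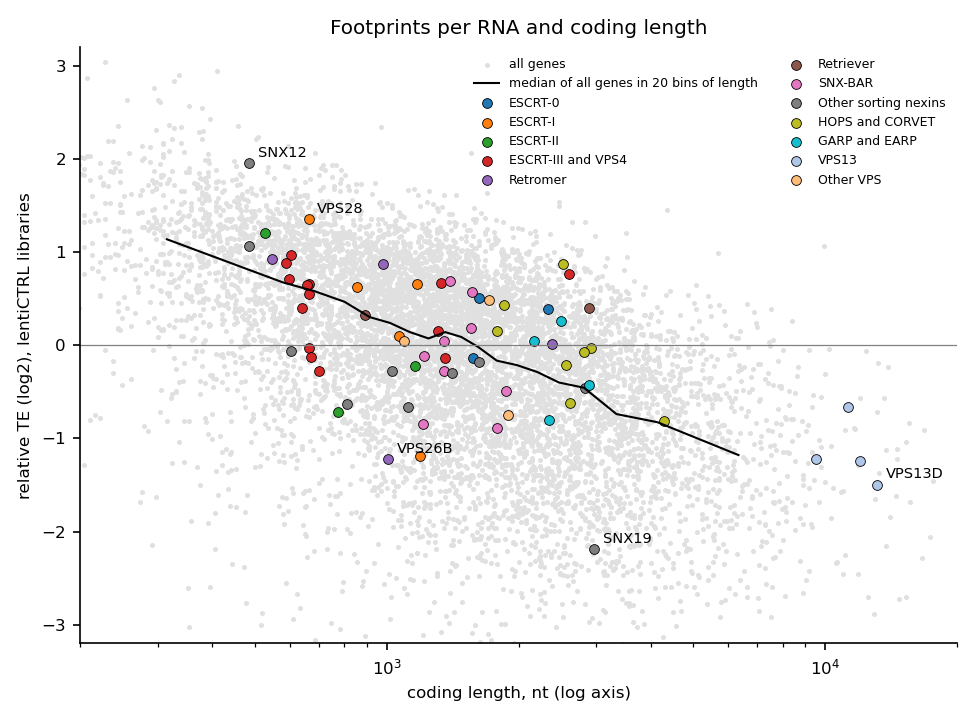
Relative TE (log2) in the lentiCTRL libraries against coding length in nt on a log axis, with all genes in grey, the median of all genes in 20 bins of length as a line, and groups in colour; a few genes lie outside the axes. The CHMP genes scatter on both sides of the line at short lengths, the VPS13 genes sit at the far right, and VPS26B, SNX19 and SNX12 lie away from the line.

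The 5′ leader was also compared, since initiation is the step at which DDX3 helicases act. The GC content of the 5′ UTR had little relation to relative TE in these genes, with a Spearman's rho of -0.13 over 68 genes and -0.03 over 62, beside -0.19 and -0.11 over all genes. Upstream ATGs moved with it more. The 17 genes with 1 or more ATG in the annotated 5′ UTR had a median of -0.62 and the 51 without had 0.26, beside -0.69 over 2941 genes and 0.28 over 5469 in the whole table. The medians were -0.42 over 13 genes and 0.18 over 49 in the other libraries. CHMP7, with 5 upstream ATGs, was at -0.14, and SNX19 and VPS13D, with 3 each, were at -2.19 and -1.50. Whether these ATGs are used was not measured.

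The bases around the start codon are shown for genes at both ends of the range and for the VPS26 pair, since they set how well a scanning ribosome recognises it. Genes on chromosome 8 are not shown, which leaves out VPS28, with a relative TE of 1.35, and VPS13B, with -1.25, in the lentiCTRL libraries. Capitals mark position -3, the ATG and position +4, counted from the A of the ATG as +1, and a purine at -3 with G at +4 is the stronger context. The start codons lie on GRCh38 at chrX:71068304-71068306 (SNX12, minus strand), chr17:42773476-42773478 (VPS25, plus), chr6:108260919-108260921 (SNX3, minus), chr10:69124278-69124280 (VPS26A, plus), chr11:134225123-134225125 (VPS26B, plus), chr9:77177705-77177707 (VPS13A, plus), chr1:12234267-12234269 (VPS13D, plus) and chr11:130915937-130915939 (SNX19, minus).
SNX12: ggaAagATGT
VPS25: actAcgATGG
SNX3: agcGaaATGG
VPS26A: ttgAcaATGA
VPS26B: ggtGcgATGA
VPS13A: aggAacATGG
VPS13D: ataGtcATGT
SNX19: tcaGccATGA
All 8 have a purine at -3, and SNX12, with the highest relative TE, lacks the G at +4, as do SNX19, VPS13D and both VPS26 genes. Over the 69 genes with such a context, 36 had both features, 52.2%, against 48.7% of all genes in the lentiCTRL table. Their median relative TE was 0.08, beside -0.07 for the 29 with either feature and -0.21 for the 4 with neither. Over all genes the corresponding medians were 0.10, -0.09 and -0.29. In the other libraries the medians were 0.04 for 34 genes with both features, 0.07 for 26 with either and -0.20 for the 3 with neither. The classes with both and with either were thus reversed in this set, though close together. Over all genes of that table the medians were 0.08, -0.06 and -0.27, in the same order as in the lentiCTRL libraries.

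Other genes of the pathway, from a list of 35 that work with these complexes, also lay on both sides of the median gene. Of the 30 in the lentiCTRL table, 14 were above it, with a median of -0.03, and 10 of 25 in the other table, with a median of -0.17. The highest were COMMD subunits of the complex that works with retriever, up to 1.31 for COMMD9, with 1.23 for COMMD4 and 1.18 for COMMD10. In the other libraries these were at 1.02, 1.00 and 1.23. Not all COMMD genes were as high as these, with COMMD1 at 0.79, COMMD6 at 0.40 and COMMD7 at -0.005 in the lentiCTRL libraries. COMMD3 was at 0.97 there and at 0.14 in the others. PIKFYVE, the kinase that makes PI(3,5)P2 on endosomes, was the lowest at -1.83, and its scaffold VAC14 was at -1.37. TBC1D5, a RAB7 inactivator bound by retromer, was at -1.24. In the other libraries PIKFYVE was at -1.73, VAC14 at -0.95 and TBC1D5 at -1.49.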

How the data were processed

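Per the labels and the study's methods, footprint adapters were trimmed, UMIs collapsed, and reads on rRNA and other small RNAs discarded. Remaining reads were mapped to hg38 with STAR 2.6.0a, and Ribo-seQC counted those over 24 nt in coding sequences. The submitters' processing notes also name cutadapt and Bowtie2. From these, the authors deposited means of DESeq2-normalized counts, 1 pooled value per gene and assay and table. The tables also hold the authors' log2 fold changes, adjusted p-values and classes, which were not used. Depth is given here as base means, and read totals per library were not used.

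Relative TE was the log2 ratio of base means, centred on the table's median gene. Counting intervals assume 4 libraries with Poisson counts. Levels per kb used the canonical coding sequence of GENCODE 44 (GRCh38), matched for 98.7% and 98.9% of genes. Coding windows of 28 nt were searched on both strands of the genome. Proteins, translated from those sequences, were aligned with Biopython 1.88. Calculations used pandas 2.3.3 and numpy 2.4.6, and were tested on simulated counts.

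The genes, groups and features were chosen with earlier results of these data known. Named genes were all ESCRT and retromer genes, paralog pairs, the highest and lowest of each other group, the 3 highest and 3 lowest overall on each measure, the 3 largest differences between tables and genes in 1 table alone. Other genes were named after their values were seen.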

Additional observations from a re-analysis of the deposited data

How the results depend on the processing

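Values that moved by more than the SD of 0.33 between the tables are given first. Centring on genes with a footprint base mean above 100 moved the median relative TE of the 69 genes in the lentiCTRL table from 0.01 to -0.53, by construction of the centre. Keeping only genes above 100 gave, in the lentiCTRL table, -0.15 for ESCRT-0, 0.22 for ESCRT-III with VPS4 and -0.53 for retromer, and in the other table -0.52 for retromer and 0.74 for the other sorting nexins. It left 4 and 12 of the genes. Each of these group medians then rested on 1 gene. These were HGS, PDCD6IP and VPS35 in the lentiCTRL table, and VPS35 and SNX3 in the other. The changes reflect the loss of genes and a new centre. The correlation with 5′ UTR GC became -0.60 over those 4. The other 30 alternatives moved less, including a minimum of 20 and, chosen after seeing the data, leaving out the 12 genes with over 5% of windows elsewhere and keeping genes in both tables. No 28-nt window was shared between members. No paired analysis was possible because the tables hold 1 pooled mean per assay, and no replicate could be left out for the same reason. Differences between conditions were not analysed here, and the authors' own fold changes were not used. Genes under the footprint minimum of each table are not covered.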
